A study of Mus musculus with 2 samples.

Results

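Stab1, Stab2, Lyve1, Clec4g, Fcgr2b, Mrc1, Oit3 and Gpr182 are marker genes of the sinusoidal endothelium of the liver, most of which encode endocytic and scavenging receptors. They were chosen by name, from the known biology of this vessel bed, but with earlier results of these data known. Counts of these genes called below are therefore descriptions. They make up 8 of the 21951 genes and transgene sequences counted in the study. All 8 were detected. The study analysed endothelial cells (ECs) sorted from livers and hearts of mouse pups to compare new inducible Cre alleles. A reporter cassette in these alleles links a membrane-bound Tomato protein (MbTomato) to Cre. In the first-generation allele, iSuRe-Cre, MbTomato and Cre are expressed together permanently. In iSuRe-HadCre, Cre is expressed for a time only, and its gene is deleted as MbTomato is switched on. With either allele a red cell should also have recombined its floxed genes. Cells of 6 origins were each stained with a hashtag, an antibody that carries a DNA barcode, and were then run together as 1 pooled droplet library.

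The 6 groups were liver and heart ECs of control pups, of pups with Cdh5-CreERT2 and the first-generation iSuRe-Cre allele, and of pups with Cdh5-CreERT2 and the iSuRe-HadCre allele. Cdh5-CreERT2 is a tamoxifen-activated Cre driven by the promoter of VE-cadherin, so recombination is directed to endothelium. According to the labels the pups were C57BL/6, received 1 dose of 40 mg/kg 4-hydroxytamoxifen on postnatal day 3, and were collected 3 days later, at P6 to P7. The cells were gated as CD31+ and MbTomato+. In the pups with an iSuRe allele the study also deleted floxed Notch1. The alleles of the control pups and the number of pups in a group were not given in the sources used here. Levels are given as CPM, the UMIs (unique molecules counted) of a gene per 1000000 gene UMIs of a group. Notch1 was at 160 CPM in control liver, 21.4 CPM in iSuRe-Cre liver and 30.7 CPM in iSuRe-HadCre liver. The heart levels of Notch1 were 138, 12.6 and 23.2 CPM in that order of genotypes, so the labels followed the targeted gene in both organs. WPRE, a sequence in the tail of the reporter transcript, was counted in all groups, at 396 CPM in control liver, 105 in iSuRe-Cre liver and 1070.3 in iSuRe-HadCre liver.

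Liver sinusoids are lined by a thin, fenestrated endothelium that clears macromolecules from blood. Its cells take up hyaluronan, collagen fragments, modified proteins and small immune complexes through a set of receptors, and pass them to lysosomes for degradation. Heart capillaries have a continuous endothelium that is not known for this activity. Several of the same receptors are also used by tissue macrophages, which share the task of clearance with the sinusoidal cells.

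A group held between 54 and 858 ECs. There were 54 control liver cells, 858 iSuRe-Cre liver cells, 76 iSuRe-HadCre liver cells, 254 control heart cells, 435 iSuRe-Cre heart cells and 311 iSuRe-HadCre heart cells. Median gene UMIs per cell were between 7322 and 16379, the latter in iSuRe-Cre heart. Another 5716 ECs carried no assignable hashtag. Macrophages were taken as 175 barcodes with UMIs of C1qa, C1qb and C1qc and with Cdh5 not over the limit set for ECs. Only 6 of these barcodes had 1 hashtag at its limit, so they are a pool without a group. Free RNA was read from barcodes with 10 to 100 gene UMIs. Its share of a group's UMIs was estimated from cardiomyocyte genes in liver groups and from hepatocyte genes in heart groups. The estimates ran from 2.01% in iSuRe-HadCre heart to 15.6% in iSuRe-Cre heart, with 6.43% in control liver. A free RNA level below is therefore that of the pool, not the amount it adds to a group. Because each group is 1 hashtagged sample, no difference has a replicate check, no test was made, and every interval given (95%, exact) covers counting error alone. A gene is said to be called higher or lower where its level differed by at least 2 times, with the interval of the ratio on 1 side of 1, and the 2 groups together held at least 20 of its UMIs.

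The groups did not match their labels equally well. Control liver cells had Gata4 at 139, Wnt2 at 96.1 and Ehd3 at 149 CPM, genes known from sinusoidal endothelium, yet Dnase1l3, also a sinusoidal gene, was at 0 UMIs. Against control heart, Gata4, Wnt2 and Ehd3 were called higher in control liver, as were the sinusoidal genes F8, Plxnc1 and Maf. Flt4 (ratio 1.74), Bmp2 (1.70) and Adam23 (1.52), also sinusoidal genes, were not called. The 3 endocardial markers summed to 325 CPM in control liver, 123 in iSuRe-Cre liver and 151 in iSuRe-HadCre liver, and Npr3 among them was at 173, 12.6 and 39.5. Heart groups had the same 3 markers at 216 to 303. Over all barcodes that passed the quality limits, the median of the iSuRe-Cre liver hashtag was 28 UMIs, against 1 to 3 for the other tags, so its limit stood at 140 rather than 25. The 8 hepatocyte markers summed to 734 CPM in iSuRe-Cre liver and 906 in iSuRe-Cre heart, against 89.3 to 146 in the other 4 groups and 5826 in free RNA. The part of these features in the results below was not tested.

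The genes lie apart from each other in the genome (GRCm38). Stab2 (chr10:86841198-87008025), Oit3 (chr10:59422958-59441778) and Gpr182 (chr10:127747276-127751732) share a chromosome, and Stab1 is at chr14:31139013-31168641, Lyve1 at chr7:110850607-110863239, Clec4g at chr8:3707064-3720651 and Fcgr2b at chr1:170958617-170976547, all on the minus strand. Mrc1 is at chr2:14229392-14332057 on the plus strand. Upstream sequence was read from the RefSeq table (GRCm38.p6), which matched 5 of the 8 genes. Lyve1, Oit3 and Gpr182 are named only. The 250 bases before the RefSeq start are shown, on the coding strand, for 4 genes with unlike patterns across the populations: Stab2 and Clec4g, which were highest in iSuRe-Cre liver, and Stab1 and Mrc1, which were highest in macrophages. They lie at chr10:87007943-87008192 (minus strand), chr8:3720652-3720901 (minus), chr14:31168642-31168891 (minus) and chr2:14229164-14229413 (plus). For Stab2 and Mrc1 the start in the gene models of the study's annotation release lies within these bases. Capitals mark words found on either strand. The words searched for GATA factors, which act in sinusoidal endothelium, were AGATAA and its near relatives that begin with T instead of A, or end with G instead of A, or both. For ETS factors, which act in all endothelium, the word CAGGAA and its form that begins with CC were used. The core of a site for PU.1, an ETS factor of macrophages, was taken as GAGGAA in either direction. A match on the opposite strand is printed as its complement and therefore begins with TT, and no matches overlapped in these windows.
Stab2: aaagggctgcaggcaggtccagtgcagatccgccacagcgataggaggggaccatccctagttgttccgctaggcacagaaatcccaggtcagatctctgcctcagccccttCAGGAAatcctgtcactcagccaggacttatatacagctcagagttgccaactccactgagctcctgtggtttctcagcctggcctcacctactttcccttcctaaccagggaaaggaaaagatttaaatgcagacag
Clec4g: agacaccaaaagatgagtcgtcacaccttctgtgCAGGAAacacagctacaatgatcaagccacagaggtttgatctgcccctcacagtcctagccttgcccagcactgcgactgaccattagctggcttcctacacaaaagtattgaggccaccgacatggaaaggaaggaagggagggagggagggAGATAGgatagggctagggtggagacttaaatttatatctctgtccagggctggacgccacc
Stab1: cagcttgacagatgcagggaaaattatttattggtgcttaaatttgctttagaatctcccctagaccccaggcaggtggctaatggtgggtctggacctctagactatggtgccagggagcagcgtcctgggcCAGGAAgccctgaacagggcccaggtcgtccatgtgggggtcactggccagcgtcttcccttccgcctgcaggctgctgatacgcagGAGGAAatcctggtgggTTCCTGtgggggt
Mrc1: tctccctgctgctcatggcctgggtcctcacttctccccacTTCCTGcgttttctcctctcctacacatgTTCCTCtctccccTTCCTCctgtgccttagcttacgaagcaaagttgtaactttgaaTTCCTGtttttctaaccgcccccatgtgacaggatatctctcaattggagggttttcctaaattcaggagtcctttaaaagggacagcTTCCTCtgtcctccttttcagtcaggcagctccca

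A single CAGGAA stood 138 bases before the start of Stab2, and no GATA word or PU.1 core was found in that window. The Clec4g window held CAGGAA 216 bases before the start and AGATAG 62 bases before it. Mrc1 had CAGGAA 2 times and GAGGAA 3 times, all on the opposite strand, and Stab1 had CAGGAA 2 times and GAGGAA 1 time. In the Fcgr2b window none of these words was found. Over the 5 windows a GATA word was in 1, an ETS word in 4 and the PU.1 core in 2. Of 32851 promoter windows of the same length, 26.5% held a GATA word, 35.1% an ETS word and 23.3% the PU.1 core. These are matches of letters and not evidence of binding.

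The stabilins are large multidomain scavenger receptors. Stab2 clears hyaluronan and other glycosaminoglycans and is a defining gene of sinusoidal endothelium. Its level was 30.4 CPM in control liver (interval 18.3 to 47.5, 19 UMIs), 1446 in iSuRe-Cre liver and 387 in iSuRe-HadCre liver (341 to 436). The heart levels were 9.90, 2.17 and 5.80 in the same order of genotypes. Macrophages had 19.4 and free RNA 223. All 3 liver groups stood above all 3 heart groups, but control liver and macrophages, neighbours in the order, were not separated (ratio 1.57, interval 0.873 to 2.72), and control liver lay below the free RNA.

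Stab1 takes up modified lipoproteins and extracellular matrix fragments and is used by macrophages as well as by sinusoidal cells. Stab1 was at 154 CPM in control liver (125 to 188), 305 in iSuRe-Cre liver and 151 in iSuRe-HadCre liver. The heart groups had 54.1, 56.4 and 40.6 in the same order of genotypes, and macrophages had 394. Of the 8 genes it was the most evenly spread over the populations. Control and iSuRe-HadCre liver, next to each other in the order, were not separated for Stab1 (ratio 1.02, interval 0.764 to 1.36), and neither were iSuRe-Cre and control heart (1.04, 0.870 to 1.25).

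Lyve1 encodes a hyaluronan receptor of lymphatic vessels, liver sinusoids and some resident macrophages. It was at 73.7 CPM in control liver (54.0 to 98.3), 375 in iSuRe-Cre liver and 124 in iSuRe-HadCre liver. Heart levels were 14.5, 11.6 and 11.6, and none of these 3 differed beyond counting error from its neighbour in the order. Macrophages had 275, and 10 of the 175 macrophages held 73.0% of their Lyve1 UMIs. In iSuRe-HadCre liver 10 of 76 cells held 97.6% of the Lyve1 UMIs, so this level rests on few cells.

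Clec4g (also known as LSECtin) and Mrc1 (the mannose receptor) are C-type lectins that bind sugar residues. Clec4g was at 17.6 CPM in control liver (11 UMIs, interval 8.80 to 31.5), 309 in iSuRe-Cre liver and 30.7 in iSuRe-HadCre liver. In the 3 heart groups it was at 3.96, 0.963 and 1.61, and in macrophages at 8.31. Beyond the gap below iSuRe-Cre liver, no neighbours in the Clec4g order were separated by counting error. Mrc1 was at 24.0 in control liver (15 UMIs, 13.5 to 39.6), 646 in iSuRe-Cre liver and 127 in iSuRe-HadCre liver, with 7.92, 9.88 and 15.1 in the heart groups of the same genotypes. Macrophages had the highest Mrc1 level, 1319.8. Of the 47 Mrc1 UMIs in iSuRe-HadCre heart, 38 came from a single cell, which also held C1q UMIs.

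Fcgr2b encodes the inhibitory Fc gamma receptor, which takes up small immune complexes in sinusoidal cells. It was at 6.41 CPM in control liver (4 UMIs, interval 1.75 to 16.4), 262 in iSuRe-Cre liver and 35.1 in iSuRe-HadCre liver. The heart groups had 1, 4 and 7 Fcgr2b UMIs in all, or 0.330, 0.482 and 2.26 CPM, and macrophages had 42.3. Fcgr2b in macrophages and in iSuRe-HadCre liver was not separated (ratio 1.20, interval 0.768 to 1.96).

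Oit3 encodes a zona pellucida domain protein known from liver, and Gpr182 an atypical chemokine receptor that takes chemokines out of circulation. Oit3 was at 32.0 CPM in control liver (19.6 to 49.5), 277 in iSuRe-Cre liver and 55.6 in iSuRe-HadCre liver. It was nearly absent elsewhere, with 1.98, 3.49 and 1.29 in the heart groups and 4.35 in macrophages. Gpr182 was at 44.9 in control liver (29.8 to 64.8), 255 in iSuRe-Cre liver and 73.2 in iSuRe-HadCre liver. In heart it was at 21.5, 24.8 and 13.5, and its lowest level was that of macrophages, 7.12.

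**Figure D1:**
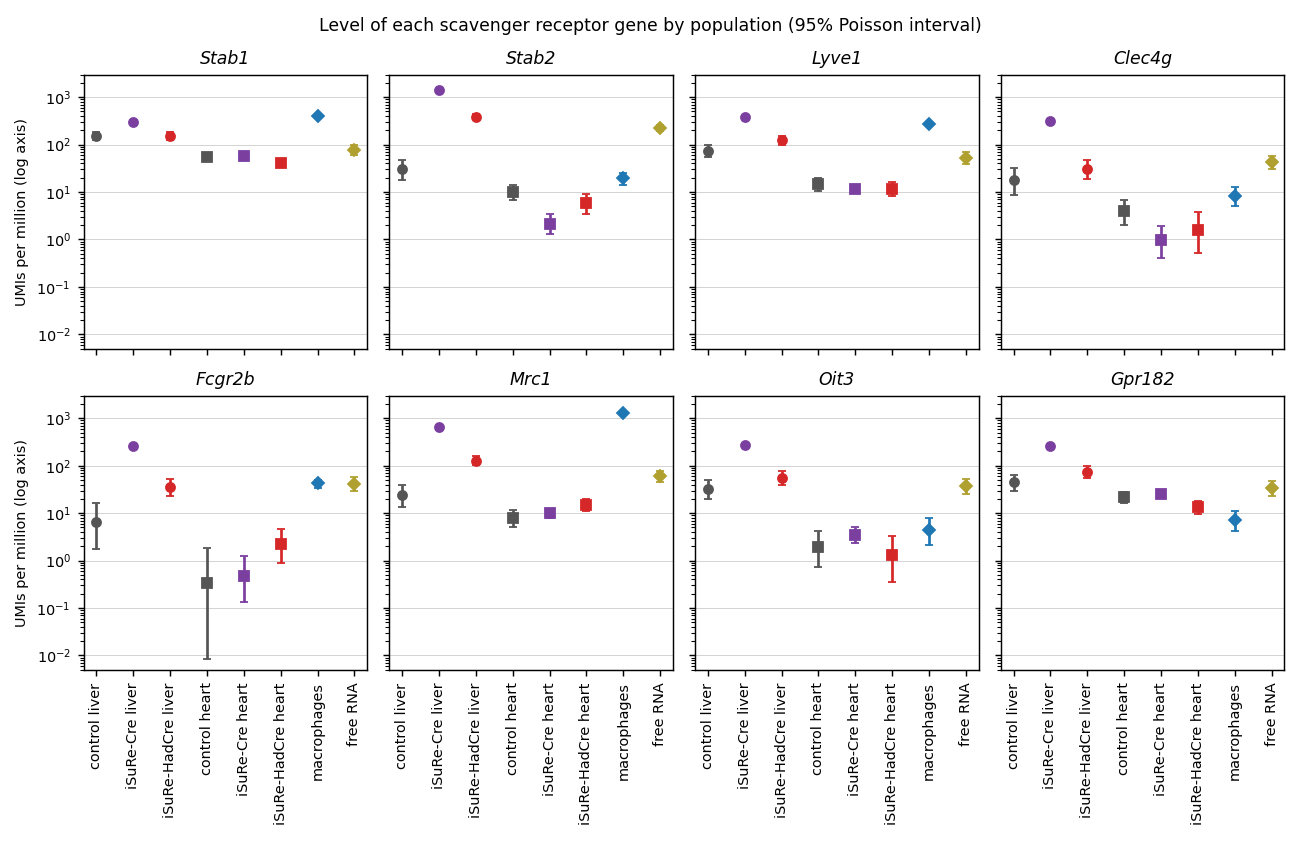
CPM (log axis) of each gene in the 6 hashtag groups, in macrophages and in free RNA. Circles are liver, squares heart, diamonds the pools without a hashtag group, and bars are exact 95% Poisson intervals. iSuRe-Cre liver was the highest EC group for all 8 genes, from 255 for Gpr182 to 1446 for Stab2, and macrophages passed it for Stab1 and Mrc1.

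The comparison of liver with heart within a genotype asks whether the genes mark the liver in each kind of pup. In control pups 7 of the 8 genes were called higher in liver, where 8.41% of the 10458 genes with enough UMIs were called higher and 2.75% lower. Fcgr2b, with 5 UMIs in both groups together, fell under the minimum. Of the genes called, Stab2, Clec4g, Mrc1 and Oit3 were lower in control liver than in free RNA, where they were at 223, 42.3, 59.6 and 36.8 CPM. Stab1, Lyve1 and Gpr182 were above their free RNA levels of 78.0, 53.1 and 33.6. Stab2 was 3.08 times higher in control liver (interval 1.64 to 5.65), Lyve1 5.08 times (3.28 to 7.86) and Oit3 16.2 times (6.27 to 49.3), while Gpr182 was 2.09 times higher (1.29 to 3.30). The count of 7 became 4 where the highest hashtag had to be at least 3 times the next, 4 without the Cdh5 criterion, and 3 with the iSuRe-Cre liver hashtag limit in every group, which left 20 control liver cells.

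In iSuRe-Cre pups all 8 were called higher in liver (background 11.2% higher and 4.85% lower). The Stab2 ratio was 667 (422 to 1126), that of Fcgr2b 544 (212 to 1997) and that of Clec4g 320 (162 to 742), and Stab1 had the smallest, 5.40 (4.90 to 5.97). All 8 were also called higher in iSuRe-HadCre liver than in iSuRe-HadCre heart (background 4.34% higher and 3.87% lower), with ratios between 3.71 for Stab1 (2.83 to 4.86) and 66.6 for Stab2 (41.3 to 114). The median log2 ratio of liver to heart over the genes tested among the 8 was 1.62 in control pups, where Fcgr2b was not among them, 6.17 with iSuRe-Cre and 3.69 with iSuRe-HadCre. Over all genes tested it was 0.11, 0.14 and -0.01.

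**Figure D2:**
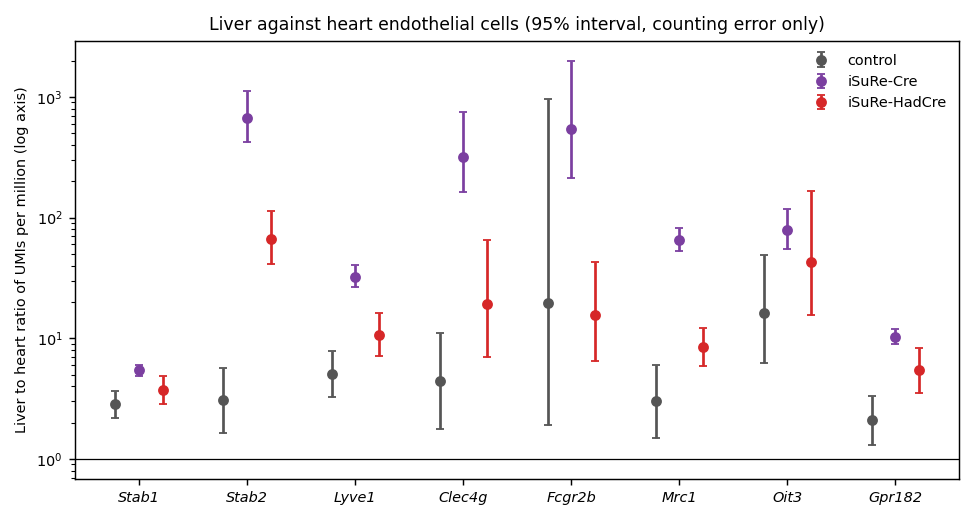
Ratio of CPM in liver to heart ECs (log axis) for each gene and genotype, with 95% intervals for counting error. All points lie above 1, those of control pups between 2.09 and 19.4. The widest bar is that of Fcgr2b in control pups, which rests on 5 UMIs.

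Between livers, the iSuRe-Cre against control comparison asks how ECs with the first-generation allele and deleted Notch1 differed from control ECs. Here 7 of the 8 genes were called higher in iSuRe-Cre liver, where 3.72% of 12539 genes were called higher and 7.23% lower. Stab2 was 47.5 times higher (interval 30.4 to 78.9), Fcgr2b 40.9 times (15.9 to 150), Mrc1 26.9 times (16.3 to 48.1) and Clec4g 17.5 times (9.77 to 35.1). Oit3, Gpr182 and Lyve1 had ratios of 8.64, 5.68 and 5.09. The 5 lymphatic markers Ccl21a, Prox1, Pdpn, Reln and Mmrn1 summed to 191 CPM in iSuRe-Cre liver, against 17.6 in control and 27.8 in iSuRe-HadCre liver. Ccl21a alone made up 139 of the 191 CPM and was at 0 in control and iSuRe-HadCre liver. In iSuRe-Cre liver 462 of the 3502 Lyve1 UMIs lay in the 114 cells with a Prox1 or Ccl21a UMI, and without such cells the Lyve1 ratio was 4.62 and stayed called. Stab1 was 1.98 times higher (1.62 to 2.45), just under the limit of 2, and passed it when levels were scaled by the median ratio of genes (2.12). The 4 control liver values of Stab2, Fcgr2b, Mrc1 and Clec4g rest on 19, 4, 15 and 11 UMIs. With cells holding any C1q UMI left out of both groups, the Stab2 ratio was 35.7 and the Clec4g ratio 10.4.

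iSuRe-HadCre liver against control liver had 3 of the 8 genes called higher and none called lower, against a background of 2.58% and 3.66% of 8324 genes. These were Stab2, 12.7 times higher (7.97 to 21.4), Fcgr2b, 5.48 times (1.88 to 21.7), and Mrc1, 5.30 times (3.04 to 9.87). All 24 Fcgr2b UMIs of iSuRe-HadCre liver lay in 5 of its 76 cells, 15 of them in 1 cell, and 10 cells held 87.9% of its Stab2 UMIs. Lyve1 had a ratio of 1.69 (1.17 to 2.47), Clec4g 1.74 (0.804 to 4.01), Oit3 1.74 (0.985 to 3.15) and Gpr182 1.63, all under the limit of 2. For Stab1 the ratio was 0.980 (0.735 to 1.31). The median log2 ratio of the 8 genes was 0.80, against -0.0047 over all genes tested, and that of iSuRe-Cre over control liver was 3.62, against -0.10. Both comparisons share the control liver cells.

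All 8 genes were called lower in iSuRe-HadCre liver than in iSuRe-Cre liver, where 3.06% of 12510 genes were called lower and 5.17% higher. Clec4g had the smallest ratio, 0.0997 (0.0616 to 0.153), followed by Fcgr2b at 0.134, Mrc1 at 0.197, Oit3 at 0.201 and Stab2 at 0.267 (0.236 to 0.302). Gpr182 was at 0.287, Lyve1 at 0.332 and Stab1 at 0.495 (0.403 to 0.603). The median log2 ratio was -2.11, against 0.07 over all genes tested. Without C1q-positive cells the ratios of Stab1 (0.637) and Lyve1 (0.514) no longer passed the limit. With the hashtag limit of iSuRe-Cre liver used for all groups, which left 27 iSuRe-HadCre liver cells, those of Stab1 and Lyve1 were 0.668 and 0.663.

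In heart the genes were near the bottom of the scale and fewer differences passed. Against control heart, iSuRe-Cre heart had none of the 8 called higher and 2 called lower (background 5.13% higher and 3.38% lower): Stab2, at 18 against 30 UMIs (ratio 0.219, interval 0.115 to 0.406), and Clec4g, at 8 against 12 UMIs (0.243, 0.0863 to 0.647). In control heart 1 cell held 13 of the 30 Stab2 UMIs, and without C1q-positive cells the Stab2 ratio was 0.483 and was not called. Both genes lay above these heart levels in free RNA, at 223 and 42.3 CPM. iSuRe-HadCre heart against control heart had none of the 8 called in either direction, with 5.61% of 11453 genes called higher and 1.17% lower, and 5 of the 8 held enough UMIs. Against iSuRe-Cre heart, iSuRe-HadCre heart had a Stab2 ratio of 2.68 (1.31 to 5.45), on 18 UMIs in each, and Stab2 was the only gene called of the 6 with enough UMIs (background 7.19% higher and 2.73% lower).

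Gpr182 and Stab1 were the genes of the 8 found in the most heart cells. Before thinning, 26.2% of iSuRe-Cre heart cells had a Gpr182 UMI and 49.7% a Stab1 UMI, at a median depth of 16379. In hepatocyte-marked barcodes, which should lack both genes and had a median depth of 4088, these shares were 14.0% and 15.3%. With all cells thinned to 2000 gene UMIs, Stab1 was in 8.74% to 10.3% of the heart cells, above the 5.40% of those barcodes, and Gpr182 in 3.14% to 5.07%, not above their 5.62%. The other 6 genes were also under the shares of those barcodes in every heart group, at no more than 1.92% of thinned cells, and these shares are not read as expression by heart ECs at large. Part of their UMIs lay in few cells, as 1 cell held 32 of the 96 Lyve1 UMIs of iSuRe-Cre heart. The Gpr182 ratio of iSuRe-HadCre to iSuRe-Cre heart was 0.546 (0.382 to 0.763) and that of Stab1 0.720 (0.587 to 0.879), both short of the limit. Part of the heart UMIs lay in cells with lymphatic markers. The markers were highest in iSuRe-Cre heart, as was Gpr182 (24.8 CPM, against 21.5 in control and 13.5 in iSuRe-HadCre heart), whereas the level of Lyve1 was not, and their part in these values was not tested. These 5 markers together were at 143 CPM in iSuRe-Cre heart, 11.9 in control heart and 17.7 in iSuRe-HadCre heart. Ccl21a alone was at 111, 0.660 and 0.322 CPM in the same order. In iSuRe-Cre heart, 57 of the 96 Lyve1 UMIs and 69 of the 206 Gpr182 UMIs were in the 51 cells with a Prox1 or Ccl21a UMI. Without such cells Lyve1 was called lower in iSuRe-Cre than in control heart (0.422), and its ratio of iSuRe-HadCre to iSuRe-Cre heart was called higher (2.19).

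Macrophages shared part of this set. Of the 8 genes, 5 were called higher and 1 lower in iSuRe-Cre liver ECs than in macrophages, where 22.4% of 12805 genes were called higher and 8.93% lower. Stab2 was 74.6 times higher in the ECs (interval 56.4 to 101), Oit3 63.6 times, Clec4g 37.1 times, Gpr182 35.8 times and Fcgr2b 6.19 times (5.10 to 7.58). Mrc1 was lower in the ECs, with a ratio of 0.490 (0.469 to 0.511). Stab1 (0.772, 0.718 to 0.831) and Lyve1 (1.36, 1.26 to 1.48) differed by less than 2 times. The median log2 shift of macrophage genes from the mean of the EC groups was -0.40, and scaling by the median ratio of genes raised macrophage levels to offset it. Under this scaling the ratios were 0.602 for Stab1, 1.06 for Lyve1 and 0.382 for Mrc1. The call for Mrc1 was lost with free RNA subtracted (0.532).

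Among other genes for Fc receptors and their subunits, Fcgr1, Fcgr3, Fcgr4 and Fcer1g were called lower in the ECs than in macrophages, at 0.0242, 0.0290, 0.102 and 0.0840 times the macrophage level. Fcgrt, the neonatal Fc receptor that recycles IgG and albumin, was not called (1.29). Of these 6 genes only Fcgr2b was called higher in the ECs (background 22.4% higher and 8.93% lower).

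Among the EC groups, iSuRe-Cre liver had the highest share of cells with a UMI for all 8 genes. To compare cells of unlike depth, each was thinned to 2000 gene UMIs, and no cell was left out. As a background, 413 barcodes with at least 1% hepatocyte UMIs and at least 3 hepatocyte genes were treated alike. Whether they hold other cells as well as free RNA was not tested, and 1 of them held 15 of their 64 Clec4g UMIs. In iSuRe-Cre liver 60.2% of the thinned cells had a Stab2 UMI (72.0% unthinned), 51.8% had Mrc1, 41.6% Stab1, 36.3% Clec4g and 30.9% Fcgr2b. In the hepatocyte-marked barcodes those shares were 12.2%, 5.86%, 5.40%, 4.42% and 2.37%. Control liver had Stab2 in 6.82% of thinned cells (22.2% unthinned), below that background, whereas its shares of Stab1 (30.0%), Gpr182 (12.3%) and Lyve1 (11.2%) were above the backgrounds of 5.40%, 5.62% and 5.49%. The interval of the Stab1 share (18.3% to 44.0%) lay above its background, and those of Gpr182 (4.95% to 24.1%) and Lyve1 (4.22% to 22.7%) held theirs. The other control liver shares were close to the background, with intervals that held it: Clec4g 5.69% against 4.42%, Mrc1 6.71% against 5.86%, Fcgr2b 2.55% against 2.37% and Oit3 7.39% against 4.25%. The CPM levels of these 4 genes in control liver were also below those of free RNA, which were 42.3, 59.6, 41.2 and 36.8. iSuRe-HadCre liver had Stab2 in 21.0% of thinned cells (12.5% to 31.9%, 31.6% unthinned) and Mrc1 in 16.4% (8.89% to 26.7%), while the interval of its Fcgr2b share (4.45%, 1.05% to 11.8%) held the background of 2.37%.

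**Figure D3:**
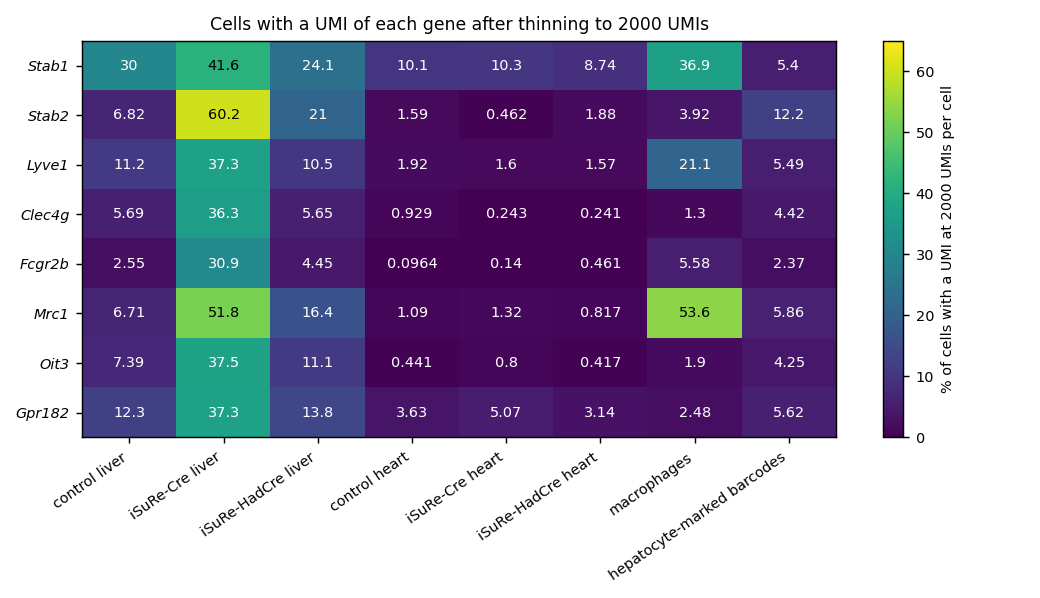
Percent of cells with a UMI of each gene after thinning to 2000 gene UMIs per cell, by population. Hepatocyte-marked barcodes serve as the background. In iSuRe-Cre liver the shares ran from 30.9% for Fcgr2b to 60.2% for Stab2, and in macrophages Mrc1 (53.6%), Stab1 (36.9%) and Lyve1 (21.1%) stood out.

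Within single cells the genes were found together in iSuRe-Cre liver. Of its 858 cells, 284 (33.1%) had UMIs of all 8 genes, 570 (66.4%) had at least 4, and 50 (5.83%) had none. All 8 were found in 2 of the 76 iSuRe-HadCre liver cells and in none of the 54 control liver cells. After thinning, 93.2% of Fcgr2b cells, 91.2% of Clec4g cells, 89.4% of Oit3 cells and 89.1% of Mrc1 cells in iSuRe-Cre liver also had Stab2, against 60.2% of all its cells. For Stab1 the figure was 81.8%, for Gpr182 81.7% and for Lyve1 87.4%. In macrophages 77.3% of Lyve1 cells and 72.8% of Stab1 cells had Mrc1, against 53.6% of all macrophages, and 3.94% of Lyve1 cells had Stab2. These shares are descriptions, since the cells come from 1 library and differ in depth.

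Liver ECs were also split by Stab2 itself, at a value of 0.9 for ln(1 + 10000 × its share of a cell's UMIs), a limit set after the values had been seen. Above it lay 570 of 858 iSuRe-Cre liver cells (66.4%), 20 of 76 iSuRe-HadCre liver cells (26.3%) and 6 of 54 control liver cells (11.1%). With either iSuRe allele the other 7 genes were all lower below it. In iSuRe-Cre liver Clec4g was at 458 CPM above the limit and 24.6 below it, Fcgr2b at 394 and 9.95, Mrc1 at 947 and 73.4, and Oit3 at 401 and 40.4. Stab1 was at 399.9 and 123, Gpr182 at 338 and 95.1, and Lyve1 at 526 and 86.4. In iSuRe-HadCre liver Mrc1 was at 581 above the limit and 5.57 below, and Fcgr2b had all 24 of its UMIs above it. The 6 control liver cells above the limit had Stab1 at 144, against 155 below it, and no Oit3 UMI.

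Between the Stab2-marked cells of both alleles the differences were smaller than over all cells. Stab1 had a ratio of iSuRe-HadCre to iSuRe-Cre of 1.09 (interval 0.835 to 1.40), where all cells gave 0.495. Gpr182 was at 0.634 (0.429 to 0.902), Mrc1 at 0.613 (0.489 to 0.761), Lyve1 at 0.605 (0.442 to 0.808) and Oit3 at 0.518 (0.348 to 0.741). Fcgr2b (0.421, 0.269 to 0.628) and Clec4g (0.287, 0.173 to 0.449) remained lowest. Only 20 cells stand on the iSuRe-HadCre side. Fewer cells of a type and less RNA per cell cannot be told apart in the sums over all cells.

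**Figure D4:**
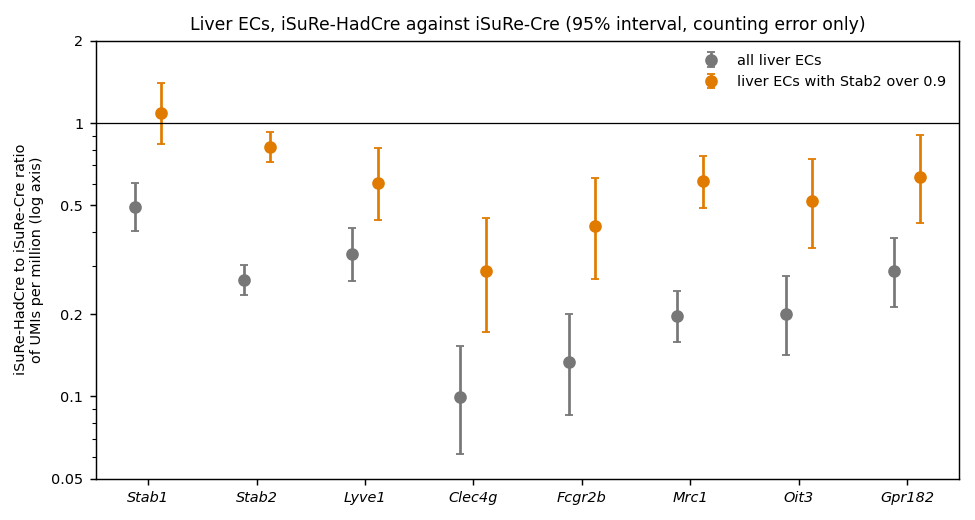
Ratio of iSuRe-HadCre to iSuRe-Cre liver ECs (log axis) for each gene, over all liver ECs (grey) and over those with Stab2 above 0.9 (orange), with 95% intervals for counting error. Over all cells the ratios lie between 0.0997 and 0.495, and in Stab2-marked cells between 0.287 and 1.09. The Stab2 point in orange uses the gene that chose the cells and is shown for completeness.

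Levels in iSuRe-Cre liver rose with the amount of its hashtag. Stab2 was at 144 CPM in 2482 ECs with 0.25 times the tag limit up to the limit, 707 in 331 cells with 1 to 2 times the limit, 1615 in 186 cells with 2 to 4 times and 1852 in 341 cells above that. Mrc1 went from 81.3 to 839 and Fcgr2b from 30.6 to 383 over the same steps, and all 8 genes rose at each step. In iSuRe-HadCre liver Stab2 was at 89.5, 299.9, 729 and 320, with 376, 24, 14 and 38 cells. Control liver showed no such rise for Stab2, at 88.6, 34.1, 30.1 and 28.4. In control heart Stab2 was lower at each step of its tag, at 69.0 below the limit and 19.9, 7.44 and 5.12 above it. The part of the tag in the differences between groups was not tested.

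**Figure D5:**
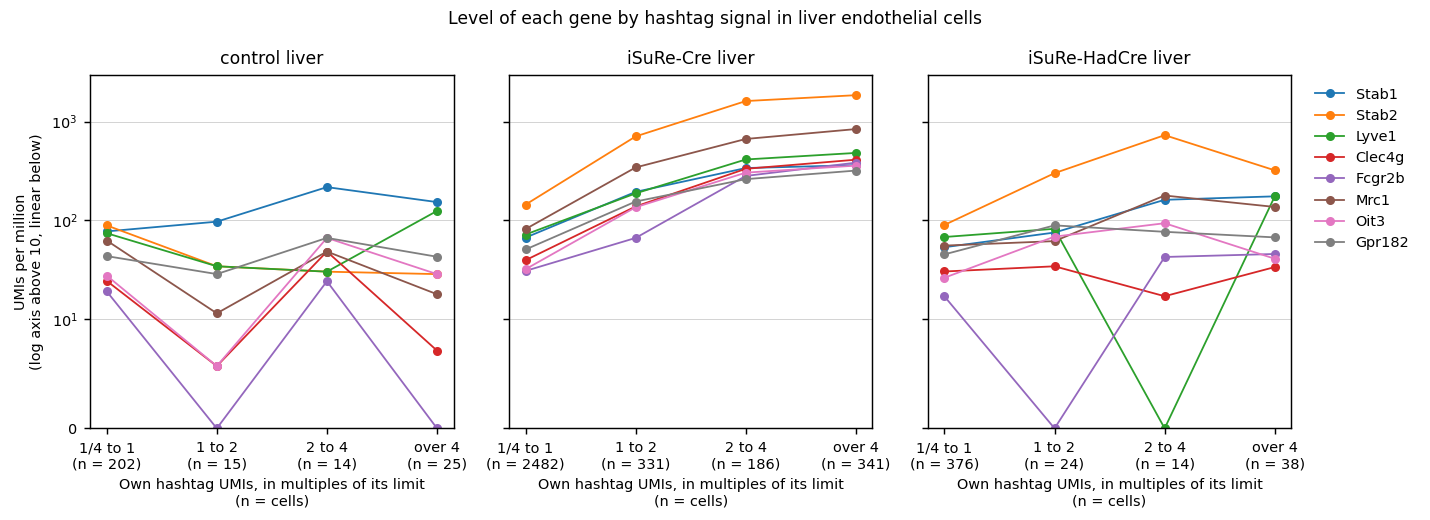
CPM of each gene (log axis above 10, linear below) in liver ECs by the count of their own hashtag, in multiples of its limit, with the number of cells under each step. In iSuRe-Cre liver all 8 lines climb, Stab2 from 144 to 1852, while lines of control and iSuRe-HadCre liver rest on 14 to 38 cells above the limit and cross each other.

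Macrophage markers were also counted in the ECs, most in iSuRe-Cre liver. The 14 macrophage markers summed to 307 CPM in iSuRe-Cre liver, 136 in iSuRe-HadCre liver, 94.5 in control liver and 54.6 to 97.0 in the heart groups, against 3837 in macrophages. In control liver 9 of the 14 were at 0, among them Adgre1, Csf1r and Clec4f, and in iSuRe-Cre liver only Cd163 was. Adgre1 and Clec4f were at 4.39 and 0.642 CPM in iSuRe-Cre liver, under the 4.81 CPM that 3 counts come to in control liver, so the zeros of these genes do not separate the groups. At least 1 C1q UMI was found in 382 (44.5%) of the iSuRe-Cre liver ECs, with a median of 2 in those cells, against 19 in macrophages. Of the iSuRe-Cre liver cells marked by Stab2, 55.6% had a C1q UMI, and 22.6% of those not marked, while the C1q level was 178 CPM in the former and 181 in the latter. In iSuRe-HadCre liver it was 1 of 20 marked cells and 13 of 56 others. The C1q-positive cells held 3789 of the 6038 Mrc1 UMIs of iSuRe-Cre liver. Without them the liver to heart ratios in iSuRe-Cre pups were 499 for Stab2, 195 for Clec4g, 73.1 for Mrc1, 24.1 for Lyve1 and 4.35 for Stab1, and all 8 genes stayed called.

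The genes whose pattern over the 6 groups and macrophages was most like each of the 8 were searched among 12379 genes other than the 8, as the smallest root mean square difference of centred log2(level + 10). For Stab1 these were Dse (0.18), Tmem37 (0.26) and Fcgrt (0.34). Stab2 had Dnase1l3 (1.07), F8 (1.13) and Wnt2 (1.29), and Mrc1 had Slc9a9 (0.70), Maf (0.76) and Gatm (0.86). Lyve1 was nearest to Maf (0.31), Fmn1 (0.61) and Sirpa (0.69). Clec4g (0.53) and Fcgr2b (0.58) both had Plxnc1 first, then Dpp4 (0.56) and Dnase1l3 (0.57) for Clec4g and Dnase1l3 (0.61) and Maf (0.66) for Fcgr2b. Oit3 was nearest to F8 (0.37), Dpp4 (0.42) and Plxnc1 (0.59), and Gpr182 to Dpp4 (0.26), Cd55 (0.27) and Sntb1 (0.36). Among the 8 themselves, Clec4g and Oit3 were nearest to each other (0.38), and Oit3 was the nearest of them to Stab2 (1.01) and to Gpr182 (0.55). The 7 populations are few, and they share free RNA and a library.

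A wider list of 11 sinusoidal genes moved with the 8. In iSuRe-Cre against control liver 8 of the 10 tested were called higher and none lower (background 3.72% higher and 7.23% lower). The median log2 ratio was 2.45, against -0.10 over all genes tested. Dnase1l3, a secreted DNase, was at least 81.8 times higher, taking 3 counts in control liver as the floor for its 0, and Maf, a transcription factor, 9.20 times. Wnt2 (1.71) and Gata4 (1.08) were not called. In iSuRe-HadCre against iSuRe-Cre liver 7 of 10 were called lower and none higher (background 3.06% lower and 5.17% higher). The median log2 ratio was -1.89, against 0.07, and Gata4 (0.876), Wnt2 (1.06) and Bmp2 (0.586) were not called. Gata4 is a regulator of sinusoidal identity and Wnt2 a factor that acts on hepatocytes, and each differed by less than 2 times among the 3 liver groups.

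Of 22 other scavenger and lectin receptors, 5 of 20 tested were called higher in liver than in heart of iSuRe-Cre pups and none lower. The background was 11.2% higher and 4.85% lower, and the median log2 ratio was 0.71, against 0.14 over all genes tested. Msr1, the class A scavenger receptor, was 54.4 times higher, at 78.6 against 1.45 CPM. Msr1 was at 78.5 in control liver (ratio of iSuRe-Cre to control 1.00, interval 0.749 to 1.37) and at 29.3 in iSuRe-HadCre liver. Between iSuRe-Cre and control liver 2 of 19 of these receptors were called higher and 1 lower. The background was 3.72% higher and 7.23% lower, and the median was -0.04, against -0.10. Between iSuRe-HadCre and iSuRe-Cre liver 4 of 18 were called higher and 3 lower (background 5.17% higher and 3.06% lower). The median there was 0.16, against 0.07. Cd36, a fatty acid and lipoprotein receptor of continuous endothelium, was at 657 CPM in control liver, 448 with iSuRe-Cre and 611 with iSuRe-HadCre.

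Of 16 genes for endocytic and lysosomal machinery, 4 were called higher in iSuRe-Cre than in control liver and none lower. The background was 3.72% higher and 7.23% lower, and the median was 0.49, against -0.10. Those called higher were Dab2, a clathrin adaptor (3.47 times), the proteases Ctsl (3.81) and Lgmn (5.54), and Ctss, which was at 0 in control liver (at least 3.96 times against the floor). In iSuRe-HadCre against iSuRe-Cre liver Dab2 (0.399), Ctsl (0.312) and Lgmn (0.338) were called lower and Cltb, a clathrin light chain, higher (2.17), of 16 tested. The background was 3.06% lower and 5.17% higher, and the median was -0.40, against 0.07. In macrophages Dab2 and Lgmn were at 1047 and 735 CPM, above the 400.3 and 178 of iSuRe-Cre liver, and Ctsl was at 474 against 989.8.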

How the data were processed

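The authors deposited 1 unfiltered matrix of raw UMI counts per feature and barcode for a pooled 10x library of liver and heart ECs with its hashtags. Per the submitters' processing notes and the file header, reads were counted with Cell Ranger 7.1.0, and per the study's methods on GRCm38 with Ensembl 98 genes and added transgene sequences. Barcodes kept as ECs had over 2000 and under 75000 gene UMIs, over 500 genes, mitochondrial and haemoglobin shares under 5%, and ln(1 + 10000 × Cdh5 share) over 0.9. The study also removed cells with a WPRE value at or under 0.5, a rule used here only as an alternative setting in the iSuRe groups. It left 379 of 858 iSuRe-Cre liver, 66 of 76 iSuRe-HadCre liver, 145 of 435 iSuRe-Cre heart and 292 of 311 iSuRe-HadCre heart cells. A cell joined a group when its own hashtag reached the larger of 25 UMIs and 5 times that tag's median and the other 5 tags were below theirs. This left 1988 of 7704 ECs in 6 groups. No doublet caller was run; 131 ECs with 2 or more hashtags at their limits were left out. A further 7 tag features without a group in the labels were not used. Macrophages passed the same limits of UMIs, genes and shares, but had a Cdh5 value at or under 0.9. They also had at least 1 UMI of each C1q gene and ln(1 + 10000 × C1qa share) over 0.9.

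UMIs were summed per group and given per 1000000 gene UMIs (CPM), with exact Poisson intervals, exact conditional intervals of ratios and exact binomial intervals of shares (95%). Interval calculations used scipy 1.17.1, numpy 2.4.6 and pandas 2.3.3 under Python 3.11.15, and were tested on simulated data. Named genes were the 8 receptors, the 3 nearest patterns to each outside the 8, and lists of sinusoidal, scavenger, Fc receptor, endocytic and marker genes. Members and lists were chosen with earlier results of these data known. Alternatives covered hashtag limits, cell criteria, removal of C1q-positive cells, scaling, free RNA and the call rule; 4 more were chosen after seeing the data.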

Additional observations from a re-analysis of the deposited data

Results flagged for a closer look

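Stab2 and Clec4g differed between iSuRe-Cre and control in opposite directions in the organs. Stab2 was 47.5 times higher in iSuRe-Cre liver and had a ratio of 0.219 in heart, and Clec4g had ratios of 17.5 in liver and 0.243 in heart. For iSuRe-HadCre against iSuRe-Cre, the Stab2 ratio was 0.267 in liver and 2.68 in heart. The difference between the organs was not tested, since each group is 1 sample. The heart values rest on 8 to 30 UMIs a group, and both genes were higher in free RNA (223 and 42.3 CPM) than in any heart group.

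The 5716 ECs without an assigned hashtag, which no comparison uses, had Stab2 at 102 CPM, Fcgr2b at 18.1 and Mrc1 at 60.9, above the control liver levels of 30.4, 6.41 and 24.0. Free RNA had these genes at 223, 41.2 and 59.6 CPM, above those ECs for Stab2 and Fcgr2b and near them for Mrc1. In 1136 of them (19.9%) Stab2 passed the value of 0.9, and in those cells Stab2 was at 629, Mrc1 at 205 and Clec4g at 94.1, with a median of 3864 gene UMIs per cell.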

How the results depend on the processing

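The number of the 8 genes called in a comparison was recomputed under 15 planned settings and 4 settings chosen after seeing the data (cells with Prox1 or Ccl21a UMIs removed, cells with hepatocyte UMIs removed, the own hashtag at 2 times its limit, and the own hashtag at the iSuRe-Cre liver limit in every group). It stayed within 1.5 times in 264 cases and moved in 36 under the planned settings, and in 68 and 12 under the added ones. Of the members' ratios, 170 moved and 864 did not under the planned settings, and of their levels 167 and 561. No called ratio changed direction, but uncalled ones did, as Mrc1 between the iSuRe hearts ranged from 0.221 to 19.9, and in iSuRe-Cre against control heart Mrc1 from 0.109 to 2.92 and Oit3 from 0.394 to 7.44. Outside the heart and macrophage comparisons the counts moved only as follows. Against heart, the 7 genes higher in control liver became 4 with the highest hashtag at least 3 times the next, 4 without the Cdh5 criterion and 3 at the iSuRe-Cre liver limit, and the 3 genes higher in iSuRe-HadCre than in control liver became 5 at a ratio of 1.5. The Stab2 ratio of iSuRe-Cre to control liver ranged from 19.5 to 94.3, and that of iSuRe-HadCre to iSuRe-Cre liver from 0.169 to 0.384. Liver to heart in iSuRe-Cre pups, the ratio ranged from 331 to at least 3790 for Stab2 and from 45.5 to 1019.9 for Mrc1. Both upper ends came with free RNA subtracted, at an estimated 15.6% of iSuRe-Cre heart UMIs. That subtraction exceeded the Stab2 count of iSuRe-Cre heart, which took the floor of 3 counts, so 3790 is a bound. The Mrc1 values of 19.9 and 0.109 and the Oit3 value of 0.394 above came with the same setting, the last on the same floor. Clec4g in iSuRe-HadCre against control liver ranged from 1.16 to 9.40.

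Heart counts rest on few UMIs. For iSuRe-Cre against control heart, 1 gene rather than 0 was higher with a limit of 50 UMIs, an upper limit on genes per cell or at 2 times the limit. The 2 lower genes became 1 in those same settings and with WPRE required, and 0 with the highest hashtag at least 3 times the next, C1q-positive cells removed or the iSuRe-Cre liver limit. For iSuRe-HadCre against control heart, 1 rather than 0 was higher with Cdh5 over 1.5, Prox1 or Ccl21a cells removed, free RNA subtracted or a ratio of 1.5, and 2 were lower with a limit of 10 UMIs and 1 with the highest hashtag at least 3 times the next, the iSuRe-Cre liver limit, the mean over cells or a ratio of 1.5. Between the iSuRe hearts, the 1 higher gene became 0 with limits of 10 or 50 UMIs, the highest hashtag at least 3 times the next, WPRE required, 2 times the limit or the iSuRe-Cre liver limit, and 2 with Prox1 or Ccl21a cells removed, free RNA subtracted, no minimum of UMIs or a ratio of 1.5. There 1 gene rather than 0 was lower with a limit of 10 UMIs, the highest hashtag at least 3 times the next, WPRE required, an upper limit on genes per cell or a ratio of 1.5, and 2 with a limit of 50 UMIs, 2 times the limit or scaling by the median ratio. Against macrophages, the 1 lower gene, Mrc1, became 0 with a limit of 10 UMIs, Cdh5 over 1.5, mitochondrial share under 10%, Prox1 or Ccl21a cells removed, 2 times the limit, the mean over cells or free RNA subtracted. The cause was not tested. Shares thinned to 4000 rather than 2000 gene UMIs moved in 19 cases and not in 37. A share rises with depth and fewer cells could be used (110 of 175 macrophages), so this count does not measure how stable the shares are.

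No paired analysis was possible because each group is 1 hashtagged sample and the labels give no replicate numbers, so no replicate could be left out either. Depth limits the control liver, with 54 cells, and all heart values below about 20 UMIs.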
